A study of Mus musculus with 7 samples.

Results

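Glycolysis was described in mouse hippocampus through 10 of its enzyme genes, Hk1, Pfkm, Pfkp, Aldoa, Aldoc, Pgk1, Eno1, Eno2, Ldha and Ldhb. They were taken by gene symbol from the deposited count table of 21965 rows. The 10 symbols matched 11 rows, because Aldoa has 2 rows. The second Aldoa row (ENSMUSG00000114515) had between 3 and 16 counts in a library and was removed by the filter on low counts, and the 10 other rows passed it. In the noise-induced hidden hearing loss group (NIHHL) there were 4 libraries, from mice exposed to noise at 110 dB for 2 h, and the Control group held 3 libraries labelled as blank control. Hidden hearing loss is a form in which noise harms the auditory nerve connections while hearing thresholds stay near normal. Both groups are hippocampus, sampled 1 month after induction according to the design text, and polyadenylated RNA was sequenced. The labels name no strain, sex, age or animal for any library, and the p-values therefore speak only to the variation among these libraries, which may be technical.

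Glycolysis splits glucose into pyruvate in the cytosol and yields ATP and NADH on the way. In brain the enzymes of several steps come as paralogues with a preferred cell type. Gamma enolase (Eno2) is the classical neuronal form and alpha enolase (Eno1) the form of glia and most other cells, aldolase C (Aldoc) is abundant in astrocytes while aldolase A (Aldoa) is found in neurons and muscle, and lactate dehydrogenase A (Ldha) favours the making of lactate while lactate dehydrogenase B (Ldhb) favours its use. In the astrocyte-neuron lactate shuttle model, astrocytes release lactate that neurons burn. In other tissues and in cultured cells, many glycolysis genes are known targets of the hypoxia-inducible factor HIF1, which binds DNA at the core letters ACGTG or GCGTG.

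Promoter sequences are shown for 4 members. Ldha and Pgk1 were the pair of members whose levels followed each other most closely across the libraries, Ldhb is the paralogue set against Ldha, and Eno2 is the neuronal enolase. Each line gives the 250 bases upstream of a RefSeq start site on the gene's own strand (build GRCm38.p6), 5′ to 3′, and capitals mark ACGTG or GCGTG on either strand. The Ldha window shown is chr7:46845554-46845803 on the plus strand, that of Pgk1 chrX:106186850-106187099 on the plus strand, that of Ldhb chr6:142507958-142508207 on the minus strand and that of Eno2 chr6:124769674-124769923 on the minus strand.
Ldha: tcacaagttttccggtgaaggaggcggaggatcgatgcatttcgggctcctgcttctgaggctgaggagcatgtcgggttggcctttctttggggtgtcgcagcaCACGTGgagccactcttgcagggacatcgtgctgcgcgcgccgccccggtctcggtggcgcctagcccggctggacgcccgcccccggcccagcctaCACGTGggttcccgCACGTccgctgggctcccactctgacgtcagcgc
Pgk1: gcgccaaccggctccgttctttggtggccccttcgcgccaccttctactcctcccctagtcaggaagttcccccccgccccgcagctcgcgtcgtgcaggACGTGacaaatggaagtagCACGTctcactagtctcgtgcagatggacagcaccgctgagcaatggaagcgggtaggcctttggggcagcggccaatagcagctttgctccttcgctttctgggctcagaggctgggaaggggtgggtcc
Ldhb: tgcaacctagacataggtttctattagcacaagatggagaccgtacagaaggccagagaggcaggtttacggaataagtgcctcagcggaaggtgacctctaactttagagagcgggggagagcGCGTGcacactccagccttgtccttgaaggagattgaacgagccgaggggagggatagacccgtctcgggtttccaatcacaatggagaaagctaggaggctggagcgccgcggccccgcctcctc
Eno2: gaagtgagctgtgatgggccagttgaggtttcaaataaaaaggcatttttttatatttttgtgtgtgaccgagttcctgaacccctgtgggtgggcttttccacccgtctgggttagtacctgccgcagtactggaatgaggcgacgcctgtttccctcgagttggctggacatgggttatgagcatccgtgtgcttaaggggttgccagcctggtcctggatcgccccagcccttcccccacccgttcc
The Ldha window shown, the first of 2 in the table and the one with more matches, held 5 matches to ACGTG, counting the palindrome CACGTG once on each strand, the Pgk1 window held 2, the Ldhb window held 1 match to GCGTG and the Eno2 window held none of either. All 10 members had at least 1 window in the RefSeq table and together 20, some of which overlap. Of these 20 windows, 16 (80%) held ACGTG or GCGTG, against 38.6% of all 32851 windows. Overlapping windows of Pfkm, Aldoa and Eno1 held the same matches, so some sites count more than once. The compared windows were not matched for GC content. The GC box GGGCGG stood in 8 member windows (40%), against 32.7% of all windows, and the letters TATAAA in 1 (5%), that of Eno2, against 12.4%. The GC content of the member windows ran from 36.4% to 71.2%, and these letter matches are not evidence that a factor binds there.

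Total counts per library were between 14871367 and 24515138, and between 0.557% and 0.646% of them fell on the member rows. A member had at least 2587 and at most 42744 counts in a library, so counting error alone gives a coefficient of variation (CV) of 0.484% to 1.97%. The spread between libraries was mostly wider, with a CV of 1.33% to 11.8% within NIHHL and 2.88% to 14.7% within Control. Levels are given as CPM, the usual counts scaled for library size, with edgeR's TMM factors for composition. The libraries also differed in a trend with transcript length, read as the Spearman correlation across 8383 well-expressed genes between a gene's log2 deviation from its mean and its exon length. It was 0.52 in NIHHL replicate 4 and 0.45 in Control replicate 1, where long transcripts were favoured, and -0.58 in Control replicate 2, where short ones were; the other 4 libraries lay between -0.33 and 0.10. Neuron and astrocyte markers of the labelled brain tissue were present in every library, with the neuronal kinase Camk2a at 4080 ± 144 CPM in NIHHL and 3888 ± 504 CPM in Control and Slc1a2, the astrocyte glutamate transporter, at 2999 ± 174 CPM in NIHHL and 2923 ± 505 CPM in Control (mean ± SD, n = 4 and 3).

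The comparison asked whether the glycolysis enzymes differ in the hippocampus after noise that leaves hidden hearing loss. No member was called. Of 10 members, 8 had a lower mean in NIHHL and 2 a higher one, and every estimated difference was small, from -7.69% for Eno1 to 1.27% for Aldoc. The 95% intervals of the 10 differences reached at their ends -18.2% for Pgk1 and 18.4% for Ldhb. In all 10 genes the values of both groups overlapped. The test was the quasi-likelihood test of edgeR, with Benjamini-Hochberg adjustment over all 14417 genes tested; 0 of them (0%) had an adjusted p under 0.05, and 523 had an unadjusted p under 0.05. In bulk tissue, fewer cells of a type and less RNA per cell cannot be told apart.

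**Figure D1:**
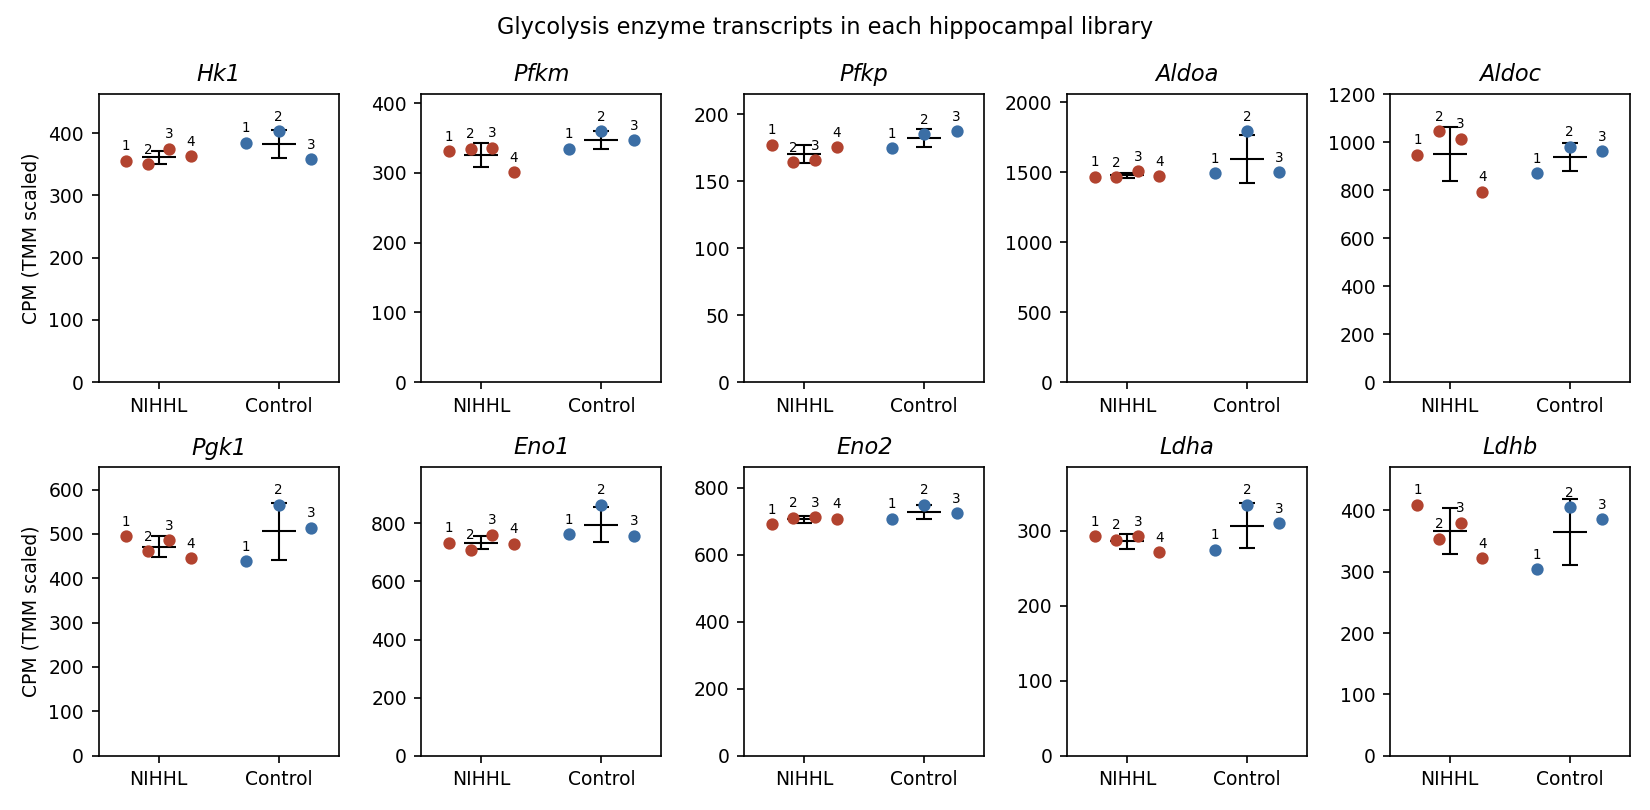
CPM (TMM scaled, y axes from 0) of the 10 glycolysis enzymes in each library, with NIHHL replicates 1 to 4 at left and Control replicates 1 to 3 at right in each panel; numbers are replicate numbers, horizontal bars the group mean and error bars the SD. The groups overlap in every panel, and Control replicate 2 is the highest library in 7 of the 10.

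Hexokinase 1, the first enzyme of the pathway and the main hexokinase of brain, phosphorylates glucose. Hk1 (chromosome 10) was at 355, 349.7, 375 and 363 CPM in NIHHL replicates 1 to 4, against 385, 403 and 358 CPM in Control replicates 1 to 3. NIHHL replicates 1 and 2 lay below the lowest Control library and replicates 3 and 4 within the Control range. The mean of Hk1 was 361 ± 10.96 CPM in NIHHL, against 382 ± 22.5 CPM in Control (SD, n = 4 and 3), with a log2 fold change of -0.08 (SE 0.06, adjusted p = 0.996 by edgeR). Without Control replicate 2 it was -0.039, and without Control replicate 3 it was -0.13.

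Phosphofructokinase commits the sugar to glycolysis and is its main point of control, as a tetramer of muscle (Pfkm), platelet (Pfkp) and liver (Pfkl) subunits. Pfkm (chromosome 15) was at 331, 335, 336 and 301 CPM in NIHHL replicates 1 to 4, against 335, 359.9 and 347 CPM in Control replicates 1 to 3. Of the NIHHL libraries 3 lay below the lowest Control library, and replicate 4 stood apart from the other 3. The log2 fold change of Pfkm was -0.09 (SE 0.06, adjusted p = 0.996 by edgeR), from means of 326 ± 16.6 CPM in NIHHL and 347 ± 12.6 CPM in Control, and it was -0.05 without NIHHL replicate 4.

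Pfkp (chromosome 13) was at 177, 164, 166 and 175 CPM in NIHHL replicates 1 to 4, against 174, 185 and 187 CPM in Control replicates 1 to 3. NIHHL replicates 2 and 3 lay below every Control library and replicates 1 and 4 beside Control replicate 1. Its log2 fold change was -0.10 (SE 0.06, adjusted p = 0.996 by edgeR), with means of 170.5 ± 6.71 CPM in NIHHL and 182 ± 6.83 CPM in Control. Its deposited counts carried decimals, and it shares 748 exon bases (5.58% of its exon length) with Pitrm1 on the opposite strand, which stood at 30.7 CPM in NIHHL and 29.8 CPM in Control; whether counting used strand was not stated.

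Aldolase splits fructose bisphosphate into a pair of triose phosphates. Aldoa (ENSMUSG00000030695, chromosome 7) was at 1469, 1465, 1507 and 1469.8 CPM in NIHHL replicates 1 to 4, against 1491, 1793 and 1498 CPM in Control replicates 1 to 3. NIHHL replicates 1, 2 and 4 lay below the Control range and replicate 3 within it, and Control replicate 2 stood above the 6 other libraries. The means were 1478 ± 19.7 CPM in NIHHL and 1594 ± 172 CPM in Control. Its log2 fold change was -0.11 (SE 0.08, adjusted p = 0.996 by edgeR) with all libraries and -0.013 without Control replicate 2.

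Aldoc (chromosome 11) was at 949, 1047, 1015 and 794 CPM in NIHHL replicates 1 to 4, against 872, 981 and 964 CPM in Control replicates 1 to 3. The NIHHL libraries lay on both sides of the Control range, with replicates 2 and 3 above it and replicate 4 below it. The log2 fold change of Aldoc was 0.018 (SE 0.09, adjusted p = 0.999 by edgeR), from means of 951 ± 113 CPM in NIHHL and 939 ± 58.8 CPM in Control, and it was below 0 without Control replicate 1 (-0.03), without NIHHL replicate 2 (-0.03) and without NIHHL replicate 3 (-0.014).

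Phosphoglycerate kinase 1 catalyses the first step of the pathway that makes ATP, and its gene is X-linked. Pgk1 was at 495, 461, 486 and 445 CPM in NIHHL replicates 1 to 4, against 438, 566 and 514 CPM in Control replicates 1 to 3. Every NIHHL library fell inside the Control range, whose ends were Control replicates 1 and 2. The log2 fold change was -0.10 (SE 0.09, adjusted p = 0.996 by edgeR); it was -0.20 without Control replicate 1 (adjusted p = 0.815 by edgeR), -0.011 without Control replicate 2 and 0.015 without both Control replicate 2 and NIHHL replicate 4.

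Enolase makes phosphoenolpyruvate. Eno1 (chromosome 4) was at 733, 709, 761 and 730.5 CPM in NIHHL replicates 1 to 4, against 762, 864 and 758 CPM in Control replicates 1 to 3. NIHHL replicate 3 lay within the Control range and the other 3 below it. Eno1 had the smallest p of the members, at rank 1360 of 14417 genes, with a log2 fold change of -0.12 (SE 0.07, adjusted p = 0.996 by edgeR). Without Control replicate 2 its log2 fold change was -0.05. Its deposited counts carried decimals, and its retrotransposed copy Eno1b, with which reads can be shared, had only 22.4 to 46.4 counts in a library.

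Eno2 (chromosome 6), whose protein is the neuron-specific enolase used as a serum marker of neuronal injury, was at 691, 710.1, 713 and 708 CPM in NIHHL replicates 1 to 4, against 708, 749 and 725 CPM in Control replicates 1 to 3. NIHHL replicates 2 and 3 lay within the Control range, and replicates 1 and 4 below it. Eno2 varied least of the 10 genes between its highest and lowest library, by 1.08-fold, and its log2 fold change of -0.044 (SE 0.06, adjusted p = 0.996 by edgeR) had a 95% interval of -0.17 to 0.08. Without Control replicate 2 it was -0.019.

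Lactate dehydrogenase interconverts pyruvate and lactate. Ldha (chromosome 7) was at 293, 288, 293 and 272 CPM in NIHHL replicates 1 to 4, against 275, 335 and 310.0 CPM in Control replicates 1 to 3. NIHHL replicates 1 to 3 lay between Control replicates 1 and 3, and replicate 4 just below Control replicate 1. The log2 fold change of Ldha was -0.10 (SE 0.07, adjusted p = 0.996 by edgeR), -0.17 without Control replicate 1 (adjusted p = 0.815 by edgeR) and -0.03 without Control replicate 2.

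Ldhb (chromosome 6) was at 409, 354, 379.9 and 322 CPM in NIHHL replicates 1 to 4, against 304, 405 and 385 CPM in Control replicates 1 to 3. It was the most variable member, with a 1.35-fold gap between NIHHL replicate 1 and Control replicate 1. The groups had nearly the same mean, 366 ± 37.0 CPM in NIHHL and 365 ± 53.7 CPM in Control. The log2 fold change was 0.0063 (SE 0.11, adjusted p = 0.9995 by edgeR), and it was below 0 without Control replicate 1 (-0.11), without NIHHL replicate 1 (-0.05) and without NIHHL replicate 3 (-0.011).

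**Figure D2:**
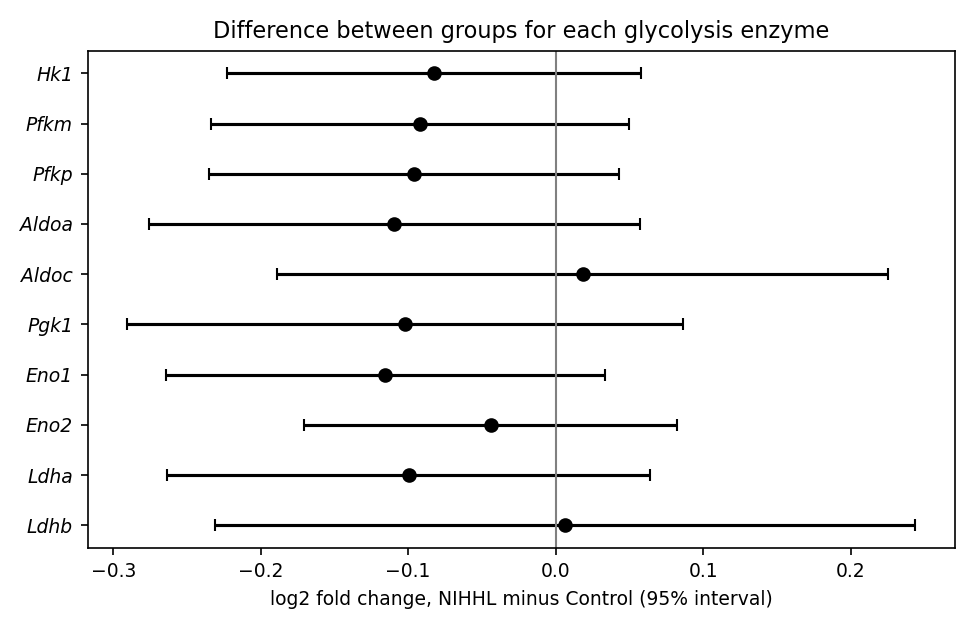
Log2 fold change of each enzyme, NIHHL minus Control, from edgeR's quasi-likelihood fit (points) with its 95% interval (bars). All 10 intervals include 0; 8 points lie below 0 and those of Aldoc and Ldhb above it.

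Read together, 8 of 10 members (80%) were lower in NIHHL, against 50.1% of all tested genes, and their median log2 fold change was -0.09, against -4.54e-04 over all tested genes. This shift was not particular to the members. Of 18 ribosomal protein genes, 16 were lower (88.9%) and 2 higher, with a median of -0.097. At an unadjusted p under 0.05 there were 0 members and 3.63% of all tested genes, with edgeR on all libraries. Without Control replicate 1 there were 2 members, Pgk1 and Ldha. The share of all genes in that fit is not given here, so these 2 cannot be set against it. Genes in which every NIHHL library lay below every Control library made up 2.37% of those tested and the opposite order 2.84%, and no member was among either. By limma-voom 0 genes were called, with 543 at an unadjusted p under 0.05, and by DESeq2's Wald test 4 genes were called, none of them a member. The members' median depended on 1 library: it was -0.02 without Control replicate 2 and -0.0155 without both Control replicate 2 and NIHHL replicate 4. The median was -0.12 without Control replicate 1, where all 10 members were lower in NIHHL; all 10 were also lower without NIHHL replicate 3. With the length trend of each library removed the members' median was -0.07, against 0.0099 over all tested genes in that fit.

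The members did not vary independently. Control replicate 2 was the highest library in 7 of 10 members (the exceptions were Pfkp, Aldoc and Ldhb), and NIHHL replicate 4 or Control replicate 1 the lowest in 5. NIHHL replicate 2, whose length trend was 0.10, was the lowest for Hk1, Pfkp, Aldoa and Eno1, and NIHHL replicate 1 for Eno2. The mean standardized level of the 10 members, in SD units, was -0.19, -0.43, 0.016 and -0.87 in NIHHL replicates 1 to 4, against -0.43, 1.52 and 0.38 in Control replicates 1 to 3. The share of counts in 18 ribosomal protein genes, which have short transcripts, was also highest in Control replicate 2, at 0.623%, and lowest in NIHHL replicate 4, at 0.407%. The library with the strongest trend towards short transcripts thus had the highest member level and the one with the strongest trend towards long transcripts the lowest. Over the 7 libraries the member level and the length trend had a Pearson r of -0.85, and the member level and the ribosomal protein level an r of 0.83, as descriptions of libraries that share one scaling. The order in between was not the same, since Control replicate 3 lay above NIHHL replicates 1 and 3, in which short transcripts were favoured more. For single members the r with the ribosomal protein level ran from 0.19 for Pfkp to 0.90 for Pfkm. With the length trend of each library removed, the SE of the log2 fold change was 0.06 in place of 0.11 for Ldhb, 0.06 in place of 0.09 for Pgk1 and 0.06 in place of 0.07 for Ldha, and the log2 fold changes of these genes were 0.09, -0.048 and -0.07. The SE was smaller for 8 of the 10 members and larger for Pfkp (0.07 in place of 0.06) and Hk1 (0.0668 in place of 0.0638), whose log2 fold changes were -0.13 in place of -0.10 and -0.10 in place of -0.08. The adjusted p was 0.989 for each member by edgeR. The length used for the trend was the union of all annotated exons, 13.401 kb for Pfkp and 8.532 kb for Hk1. Their longest principal coding transcripts had 4.145 and 3.851 kb, and a trend on that length was not tested.

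**Figure D3:**
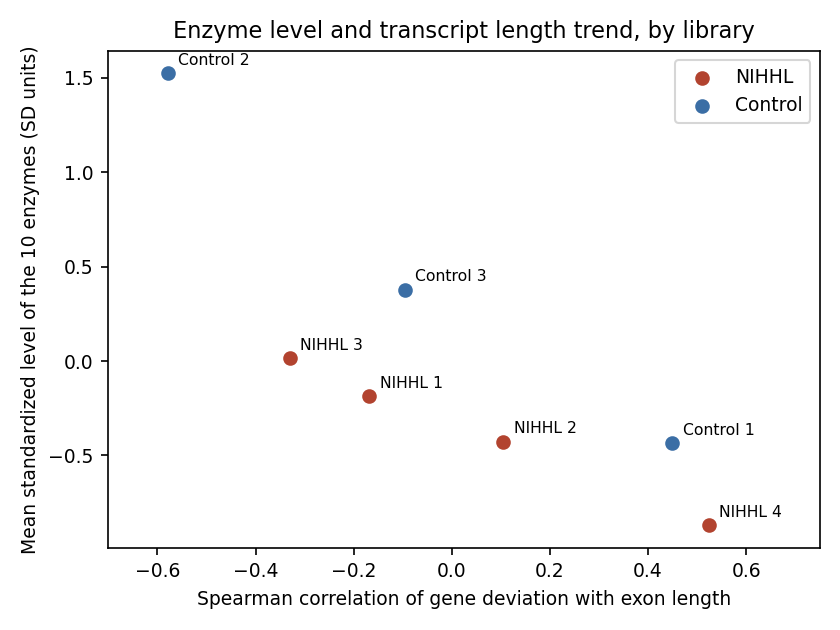
Mean standardized level of the 10 enzymes in each library (y axis, SD units) against the library's length trend (x axis, Spearman correlation of gene deviation with exon length); each point is 1 library. Control replicate 2 stands at the top left and NIHHL replicate 4 at the bottom right, and the groups overlap on both axes.

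Among the members, Ldha and Pgk1 had the closest profiles (Pearson r = 0.98 over 7 libraries), followed by Aldoa with Eno1 (r = 0.96). Aldoc and Pfkp were the least alike (r = -0.25). The mean r over all pairs was 0.56. These values describe 7 libraries that share one scaling and the length trend. Of 4315 other genes with a mean of at least 50 CPM, those most like the mean member profile were Pkm (r = 0.99), the pyruvate kinase that ends the pathway, Snrpn (r = 0.99), a small nuclear ribonucleoprotein of neurons, Atp6v1h (r = 0.99), a subunit of the vacuolar proton pump, Cisd1 (r = 0.99), an iron-sulfur protein of the outer mitochondrial membrane, and Vdac1 (r = 0.99), the channel of that membrane. The least alike were Sec16a, a coat assembly protein of the endoplasmic reticulum (r = -0.99), the ubiquitin ligase Nedd4 (r = -0.98), the chromatin genes Kmt2c and Chd8 (r = -0.97 each) and Gtf3c1, a subunit of a general transcription factor (r = -0.97). The 5 least alike had exon lengths of 9189 to 20291 bases, and the 5 most alike 1084 to 9746 bases. The genes named are the ends of a ranking of 4315 genes, of which 191 had an r above 0.9 with the mean member profile.

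Levels of different genes were compared per kilobase (kb) of the longest principal coding transcript in the GENCODE M21 annotation. Aldoa was the highest, at 978 ± 13.1 CPM per kb in NIHHL and 1055 ± 114 CPM per kb in Control. Eno1 followed at 362 ± 10.5 CPM per kb in NIHHL and 392 ± 29.8 CPM per kb in Control, then Aldoc at 341 ± 40.4 CPM per kb in NIHHL and 337 ± 21.1 CPM per kb in Control. Eno1 was above Aldoc in 6 of 7 libraries and their ranges overlapped. The range of Aldoc also overlapped that of Ldhb. Ldhb, Pgk1 and Eno2 came next, with ranges that overlapped between Ldhb and Pgk1 and between Pgk1 and Eno2, at means of 280.4, 267 and 256 CPM per kb over all 7 libraries. Ldha came next at 162 ± 5.68 CPM per kb in NIHHL and 174 ± 17.1 CPM per kb in Control, below Eno2 in 7 of 7 libraries. Lowest on this length were Pfkm at 116, Hk1 at 96.0 and Pfkp at 42.3 CPM per kb over all 7 libraries, and the ranges of Pfkm and Hk1 met. The order depends on the length used, and the second length was added after seeing the data. Per kb of the union of all annotated exons, Aldoa, Aldoc, Ldhb and Pgk1 led, Ldha stood below Pfkm, and Eno1 stood sixth below Eno2, with an exon union of 5.379 kb and a principal transcript of 2.027 kb.

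**Figure D4:**
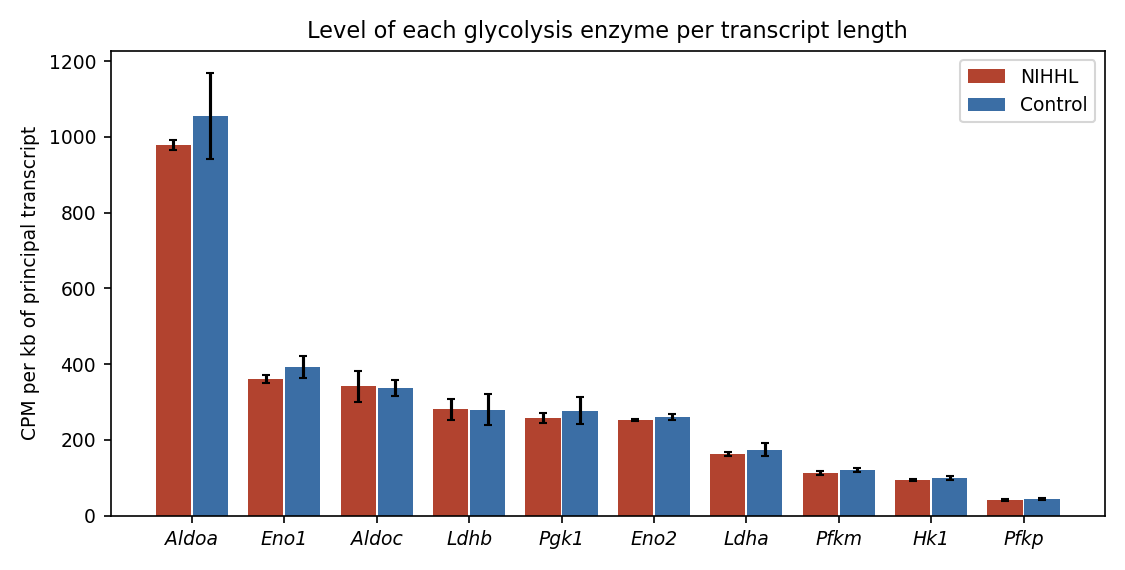
Mean level of each enzyme in CPM per kb of its longest principal transcript, in NIHHL (left bars) and Control (right bars), with the SD over 4 and 3 libraries; the y axis starts at 0. Aldoa stands highest, at 978 CPM per kb in NIHHL and 1055 CPM per kb in Control, and Pfkp lowest, at 41.1 CPM per kb in NIHHL and 44.0 CPM per kb in Control.

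The balance between paralogues was read as a log2 ratio of counts within each library, in which the scaling of libraries cancels. The length trend of a library need not cancel. Counts were not divided by transcript length, so the size of a ratio is not the ratio of transcript levels. Each difference was put to an exact permutation test (two-sided, 35 arrangements of the group labels, smallest possible p 0.0286), with adjustment over the 4 ratios. After this adjustment a single ratio at the smallest possible p would not pass 0.05. A ratio that was not called is therefore not shown to be unchanged. The enolase ratio Eno2/Eno1, neuronal over non-neuronal form, was -0.09, 0.0015, -0.10 and -0.046 in NIHHL replicates 1 to 4, against -0.11, -0.21 and -0.06 in Control replicates 1 to 3. The values overlapped, and the difference of 0.07 was not called (exact p = 0.171, adjusted 0.457). It was 0.029 without Control replicate 2 (exact p = 0.467). The aldolase ratio Aldoa/Aldoc was 0.63, 0.49, 0.57 and 0.89 in NIHHL replicates 1 to 4, against 0.77, 0.87 and 0.64 in Control replicates 1 to 3. NIHHL replicates 1 to 3 lay below every Control library and replicate 4 above them all; the difference was -0.12 (exact p = 0.343, adjusted 0.457) and -0.20 without NIHHL replicate 4 (exact p = 0.100, the smallest that 3 against 3 can give). Leaving out Control replicate 3 gave -0.18 (exact p = 0.333), leaving out Control replicate 2 gave -0.06 (exact p = 0.667) and leaving out NIHHL replicate 2 also gave -0.06 (exact p = 0.700).

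The lactate dehydrogenase ratio Ldha/Ldhb was -0.48, -0.30, -0.38 and -0.25 in NIHHL replicates 1 to 4, against -0.14, -0.27 and -0.31 in Control replicates 1 to 3. Every library thus had more counts on Ldhb than on Ldha. The difference between groups was -0.11, with SDs of 0.10 in NIHHL and 0.09 in Control (exact p = 0.257, adjusted 0.457), and -0.16 with the length trend removed (exact p = 0.0571, not adjusted). Leaving out Control replicate 1 gave -0.06 (exact p = 0.600), as did leaving out NIHHL replicate 1 (exact p = 0.500). The phosphofructokinase ratio Pfkm/Pfkp was 0.90, 1.03, 1.02 and 0.78 in NIHHL replicates 1 to 4, against 0.94, 0.96 and 0.89 in Control replicates 1 to 3. The group means were 0.93 in both, with a wider spread in NIHHL (SD 0.12) than in Control (SD 0.037), and the difference was 0.0034 (exact p = 1.00). With the length trend removed, the difference in Pfkm/Pfkp was 0.058 (exact p = 0.371, not adjusted). In that setting it was -0.11 for Aldoa/Aldoc (exact p = 0.343) and 0.074 for Eno2/Eno1 (exact p = 0.257), also not adjusted.

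**Figure D5:**
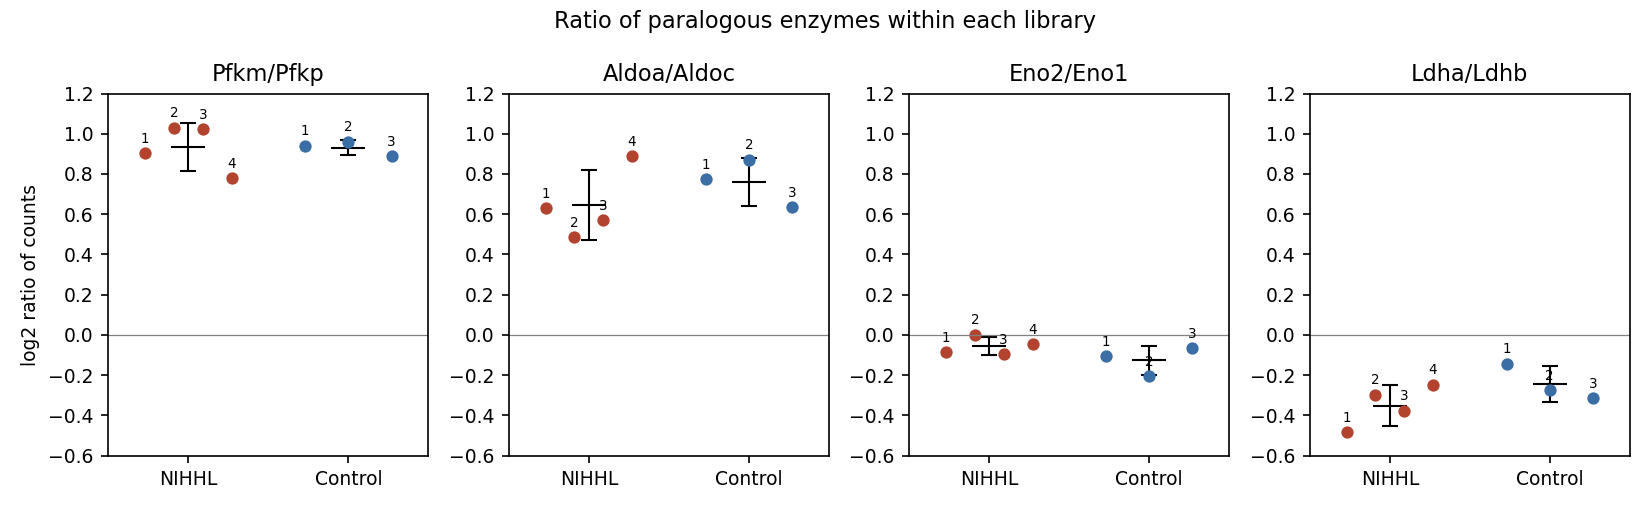
Log2 ratio of counts of 2 paralogous enzymes within each library (y axis, same scale in each panel), with NIHHL replicates at left and Control replicates at right; bars are the mean and SD. The groups overlap in each of the 4 ratios, and NIHHL replicate 4 lies apart from replicates 1 to 3 for Aldoa/Aldoc.

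Outside the members the pathway had 19 other listed genes. Of these, 15 were tested and 10 were lower in NIHHL (median log2 fold change -0.08), with 0 called. Gapdh, the dehydrogenase that makes the NADH of the pathway, was at 2240.1 ± 134 CPM in NIHHL and 2451 ± 275 CPM in Control (log2 fold change -0.13, SE 0.08), and Pkm at 1172 ± 50.04 CPM in NIHHL and 1269 ± 121 CPM in Control (-0.12, SE 0.08). The liver-type phosphofructokinase Pfkl was at 182 ± 4.59 CPM in NIHHL and 192 ± 23.4 CPM in Control. Some other paralogues were scarce, with means of 7.67 CPM in NIHHL and 7.46 CPM in Control for hexokinase 2 (Hk2) and 3.60 CPM in NIHHL and 2.89 CPM in Control for the muscle enolase Eno3. The testis forms Pgk2 and Ldhc did not pass the low-count filter, with at most 1 and 3 counts in a library. Eno4, an enolase-like gene of the sperm flagellum, was at 5.26 ± 0.915 CPM in NIHHL and 2.75 ± 0.278 CPM in Control, with no overlap, and did not pass the test (log2 fold change 0.93, SE 0.19, adjusted p = 0.996 by edgeR).

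Genes around glycolysis were counted the same way. Of 5 tested regulators 4 were higher in NIHHL (median 0.029); Hif1a, the oxygen-regulated subunit of HIF1, was at 89.8 ± 6.62 CPM in NIHHL and 88.7 ± 2.22 CPM in Control, and Pfkfb3, which makes an activator of phosphofructokinase, at 44.1 ± 4.16 CPM in NIHHL and 41.5 ± 0.899 CPM in Control. Of 6 glucose and lactate transport genes 3 were lower (median -0.0095), among them the neuronal glucose transporter Slc2a3 at 122 ± 5.003 CPM in NIHHL and 132 ± 7.25 CPM in Control, while basigin (Bsg), the partner of lactate transporters, was at 368 ± 68.3 CPM in NIHHL and 354 ± 97.9 CPM in Control. Of 14 genes that bring pyruvate into mitochondria 12 were lower (median -0.05), with Pdha1, a pyruvate dehydrogenase subunit, at 256 ± 9.42 CPM in NIHHL and 276 ± 7.80 CPM in Control, and Mpc1, a pyruvate carrier subunit, at 148 ± 20.2 CPM in NIHHL and 155 ± 31.4 CPM in Control.

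Of 7 glycogen genes 5 were higher (median 0.021), with brain glycogen phosphorylase Pygb at 360.3 ± 16.8 CPM in NIHHL and 348 ± 13.9 CPM in Control, and Ugp2, which makes UDP-glucose, at 115 ± 5.38 CPM in NIHHL and 113 ± 6.42 CPM in Control. Of 7 pentose phosphate genes 4 were higher (median 0.036), with transketolase (Tkt) at 144 ± 11.997 CPM in NIHHL and 140.1 ± 13.9 CPM in Control, and transaldolase (Taldo1) at 80.3 ± 7.32 CPM in NIHHL and 77.4 ± 8.24 CPM in Control. Of 9 genes of the NADH shuttles 7 were lower (median -0.08), with malate dehydrogenase Mdh1 at 831 ± 84.4 CPM in NIHHL and 921 ± 186 CPM in Control and the aspartate aminotransferase Got1 at 291 ± 14.5 CPM in NIHHL and 324 ± 10.97 CPM in Control, without overlap. In each of these 6 lists no gene passed an adjusted p of 0.05 with edgeR (0 called).

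Markers of the cell types that hippocampus can hold are given beside the enzymes. All 10 astrocyte markers had a higher mean in NIHHL (median log2 fold change 0.08), with a summed level of 6750 to 7204 CPM in NIHHL and 5897 to 7214 CPM in Control, and 7 of 10 neuron markers had a lower one (median -0.10), with a summed level of 9723 to 10636 CPM in NIHHL and 9649 to 11200 CPM in Control. Camk2a, the most abundant neuron marker, weighed most in the neuron sum and was among the 3 that were higher in NIHHL. The lowest astrocyte sum and the highest member level were both in Control replicate 2. The highest astrocyte sum was in Control replicate 1, while the lowest member level was in NIHHL replicate 4, where the astrocyte sum was 6814 CPM. All 8 oligodendrocyte markers had a higher mean (median 0.19; 7860.1 to 9326 CPM in NIHHL, 6851 to 8597 CPM in Control), as did all 8 choroid plexus markers (median 0.71; 562 to 8473 CPM in NIHHL, 97.4 to 6989 CPM in Control) and all 8 ependymal markers (median 0.45; 69.4 to 81.7 CPM in NIHHL, 40.8 to 66.7 CPM in Control). Microglia markers summed to 463 to 579 CPM in NIHHL and 491 to 523 CPM in Control, endothelial markers to 183 to 186 CPM in NIHHL and 183 to 206 CPM in Control, and red blood cell markers to 209 to 594 CPM in NIHHL and 182 to 628 CPM in Control. No marker of these lists was at 0 counts in any library, 0 were called, and their part in the enzymes' values was not tested.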

How the data were processed

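The authors deposited expected counts per gene (90.7% of the values whole, the rest with decimals), not scaled to library size, with 1 column per library per the file headers. HISAT2, DESeq2, StringTie 1.3.1 and Bowtie2 2.2.8 appear in the submitters' processing notes, with no role; which build, annotation and counting the authors used was not stated. Counts were rounded, genes with low counts were removed with edgeR's filterByExpr (minimum count 10, leaving 14417 genes), libraries were scaled by TMM and the groups were tested with the quasi-likelihood method of edgeR, moderated robustly (R 4.3.3, edgeR 4.0.16, limma 3.58.1, DESeq2 1.42.0). Log2 fold changes are NIHHL minus Control, and the standard error is the size of the log2 fold change over the square root of F. Paralogue ratios were tested by exact permutation. Exon lengths came from GENCODE M21 (GRCm38), in which 21854 of 21965 identifiers were found. The length trend was removed with a lowess curve (span 0.3) per library as an offset. The intervals of the log2 fold changes rest on the standard error from the quasi-likelihood fit, so they include the spread between libraries. The CV given for counting error covers counting error only. The code was tested on simulated data.

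The members and gene lists were chosen with earlier results of these data known. The genes named are all 10 members, their paralogues (1 is not reported here), the 2 most abundant tested genes of each other metabolic list, and the 5 genes most and the 5 least like the mean member profile.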

Additional observations from a re-analysis of the deposited data

Results flagged for a closer look

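Of 14 sets of 4 NIHHL values (10 enzyme levels and 4 paralogue ratios), 2 had a sample far from the other 3, where chance alone flags about 1 set in 20. Pfkm was at 301 CPM in NIHHL replicate 4, against 331 to 336 CPM in the other NIHHL libraries. Aldoa was at 1507 CPM in NIHHL replicate 3, against 1465 to 1469.8 CPM in the other NIHHL libraries, a gap that is small beside the spread of the Control libraries (1491 to 1793 CPM).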

How the results depend on the processing

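No member was called under any of the 14 alternatives, 6 of them other fits, 7 leaving out 1 library each and 1 leaving out 2. Over all genes the count of calls stayed at 0 except with DESeq2's Wald test (4 genes, mt-Atp8, Hsd3b1, Akr1cl and Dnah6, named after their values were seen) and, in an alternative chosen after seeing the data, without both Control replicate 2 and NIHHL replicate 4 (1 gene, Gcat), where the members' median log2 fold change was -0.0155 and Pgk1 was at 0.015. Leaving out 1 library at a time, the members' median ran from -0.12 to -0.02, the log2 fold change of Aldoc from -0.0327 to 0.0975 and that of Ldhb from -0.109 to 0.0917, and the difference in Pfkm/Pfkp ran from -0.0284 to 0.0547. The 7 members other than Aldoc, Ldhb and Pgk1 kept a lower value in NIHHL in all 14. The labels do not state that replicate numbers pair the samples. Deviations of same-numbered libraries from their group means correlated at -0.52, -0.33 and -0.037. These values cannot decide whether the samples were paired, since the deviations are centred within small groups and carry the length trend. With replicate number as a block in the fit, the members' median was -0.07 with 0 calls. The differences in the other paralogue ratios ran from -0.198 to -0.0611 for Aldoa/Aldoc, from -0.142 to -0.0575 for Ldha/Ldhb and from 0.0293 to 0.0999 for Eno2/Eno1 when 1 library was left out. Counting error of a member had a CV of at most 1.97%.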

Other observations

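Of the other metabolic genes listed, 5 had no overlap between the groups and did not pass the test: Eno4, described above, and Got1, Got2, Rpia and Pfkfb4. They were picked after their values were seen. The lists held 15 tested genes of glycolysis outside the members, 5 of its regulation and 6 of glucose and lactate transport. They also held 14 of pyruvate entry, 7 of glycogen, 7 of the pentose phosphate pathway and 9 of the NADH shuttles. Over all tested genes, 2.37% had every NIHHL library below every Control library and 2.84% the opposite order. Got1 and Got2, the cytosolic and mitochondrial aspartate aminotransferases of the malate-aspartate shuttle, were lower in every NIHHL library than in every Control library, at 291 ± 14.5 CPM in NIHHL and 324 ± 10.97 CPM in Control for Got1 and at 258 ± 2.36 CPM in NIHHL and 272 ± 11.5 CPM in Control for Got2 (log2 fold changes -0.15, SE 0.06, and -0.08, SE 0.06; adjusted p = 0.996 for each by edgeR). Rpia, a pentose phosphate isomerase, was at 5.42 ± 0.424 CPM in NIHHL and 6.77 ± 0.824 CPM in Control, and Pfkfb4, a paralogue of Pfkfb3, at 10.04 ± 1.000 CPM in NIHHL and 8.73 ± 0.324 CPM in Control, each without overlap (adjusted p = 0.996 for each by edgeR).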
